A study of Mus musculus with 4 samples.

Results

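A set of 10 genes of the AP-1 and immediate-early transcription factor group were followed in colon tumours profiled by CAGE, which counts 1 short tag for each captured 5′ cap of an RNA. They were chosen by symbol as Fos, Fosb, Fosl1, Fosl2, Jun, Junb, Jund, Egr1, Atf3 and Klf6, and 9 of the 10 were found among the 14979 genes of the count table. All 9 had enough tags to be tested, as did 14331 genes in all, and the level of Fosb is not analysed here. The tumours arose in AOM/DSS mice, in which azoxymethane, a carcinogen, is combined with dextran sulfate sodium, which inflames the colon. The 2 groups were mice given an antibody against MAdCAM-1, the gut venule adhesion molecule for lymphocytes, and mice given a control IgG antibody, with 2 mice selected and 2 libraries in each. The labels do not tie each library to its mouse, so the p-values measure the spread between these samples. The libraries are named IgG 1, IgG 2, MAdCAM1 1 and MAdCAM1 2. Strain, age, dose and timing are not given in the sources used here, and the groups share the AOM/DSS treatment.

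AP-1 is a dimer of basic leucine zipper proteins, usually 1 protein of the Fos family with 1 of the Jun family, or 2 Jun proteins, since Fos proteins do not pair with each other. Fos, Egr1, Junb and Atf3 are immediate-early genes: growth factor, cytokine or stress signals switch them on through MAP kinases and factors already present in the cell, and the RNA is soon degraded. Jund and Fosl2 are often expressed more steadily, and Klf6 is an early response gene in some cells. In the intestine Jun and Fosl1 are known from studies of Wnt-driven tumours and of epithelial repair.

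The 4 libraries held 14850923 to 16891234 tags, and levels are given as CPM, the tag counts divided by the library total and scaled by TMM factors of 0.962 to 1.04. At this depth 1 tag equals 0.0569 to 0.0700 CPM. Each capped RNA end gives at most 1 tag, so that CAGE levels of different genes are not divided by gene length. The epithelial markers Epcam (1945, 2049, 3185 and 2811 CPM) and Krt8 (1497, 1032, 2305 and 2121 CPM) were abundant in all 4 libraries, in the order IgG 1, IgG 2, MAdCAM1 1, MAdCAM1 2, which is used throughout. Smooth muscle markers set the libraries apart across the groups: the 10 tested of 12 listed, led by Acta2 (483, 62.3, 37.5 and 509 CPM) and Des (327, 2.10, 18.4 and 403 CPM), summed to 2248, 177, 172 and 2439 CPM. Fold changes are MAdCAM1 over IgG from edgeR's quasi-likelihood fit over all tested genes, with Benjamini-Hochberg adjusted p-values, and a positive log2 value means a higher level in antibody-treated mice.

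Promoter stretches of 3 of the genes are shown because each holds a site of the kind that AP-1 and its ATF and CREB relatives bind. The windows come from RefSeq promoters (table build GRCm38.p6) and were placed on GRCm39, the authors' build, by an exact match of their letters. Each is given 5′ to 3′ on the gene's strand and ends before the first annotated transcript start, and positions count back from the RefSeq start. The Fos stretch (chr12:85520414-85520657, plus strand) has TGACGT, the core of a cyclic AMP response element, in capitals at −66 to −61. The Jun stretch (chr4:94940460-94940709, minus strand) has TGACATCA, an AP-1-like site, at −45 to −38, and the Klf6 stretch (chr13:5911238-5911480, plus strand) has the same letters at −119 to −112.
Fos: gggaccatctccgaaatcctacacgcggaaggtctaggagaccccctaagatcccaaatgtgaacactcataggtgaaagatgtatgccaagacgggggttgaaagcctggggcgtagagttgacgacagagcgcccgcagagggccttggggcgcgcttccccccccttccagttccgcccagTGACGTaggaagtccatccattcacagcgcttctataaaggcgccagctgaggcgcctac
Jun: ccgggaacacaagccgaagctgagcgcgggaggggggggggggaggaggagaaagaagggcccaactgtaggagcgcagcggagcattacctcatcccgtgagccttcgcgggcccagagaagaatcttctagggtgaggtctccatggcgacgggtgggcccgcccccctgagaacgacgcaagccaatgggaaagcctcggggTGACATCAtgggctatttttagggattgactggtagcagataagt
Klf6: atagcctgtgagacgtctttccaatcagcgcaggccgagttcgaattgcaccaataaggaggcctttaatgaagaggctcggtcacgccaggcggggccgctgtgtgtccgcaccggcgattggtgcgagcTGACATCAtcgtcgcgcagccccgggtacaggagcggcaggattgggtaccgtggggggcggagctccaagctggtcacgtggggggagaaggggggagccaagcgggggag

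RefSeq windows of 300 bases, 250 before the RefSeq start and 50 after it, were at hand for 8 of the 10 genes. Both strands were searched, and sites farther upstream were not looked for. Egr1 and Fosl1 had no window. Only 6 of the 8 hold a GENCODE M39 start of their gene: the Fosl2 window lies inside the gene and the Jund window upstream of it, so neither is taken as the promoter in use. The canonical AP-1 site TGANTCA was in 0 of the 8 windows, against 7.81% of all 32851 windows of that length, and the full response element TGACGTCA in 0, against 1.79%. The CArG box, bound by serum response factor, was in 0 (1.63% of all windows), and the EGR site GCGTGGGCG in 0 (0.612%). GCGGGGGCG, another EGR site, was in 2, those of Fosb and Fosl2 (2.91%). TGACGT, which lies within TGACGTCA, was in 2, those of Fos and Atf3 (7.51%), and TGACATCA in 2, those of Jun and Klf6 (3.62%). The last 2 motifs were chosen after the windows had been read. Such matches describe these windows only, and the counts per gene do not show which start site gave the tags.

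Of the 9 genes, 0 passed the test between the antibody groups. Over the whole table the quasi-likelihood test called 0 of 14331 genes higher (0%) and 0 lower (0%). At an unadjusted p under 0.05 it had 730 higher (5.09%) and 261 lower (1.82%), and 0 of the 9 genes were among them. Calls by edgeR's exact test numbered 152 on the higher side (1.06%) and 9 on the lower side (0.0628%). For DESeq2 they numbered 219 (1.53%) and 20 (0.14%), and for limma-voom 0 (0%). Again 0 of the 9 genes were among them. Junb and Fosl2 had both MAdCAM1 values below both IgG values, and Klf6 had both above. That makes 2 of 9 genes lower without overlap, against 18.7% of all tested genes, and 1 of 9 higher, against 19.7%, shares near the background. The median log2 fold change of the 9 genes was −0.23, beside −0.0012 for all tested genes, and it was 0.024 without IgG 1. In bulk tumour RNA, fewer cells of a type and less RNA per cell cannot be told apart.

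**Figure D1:**
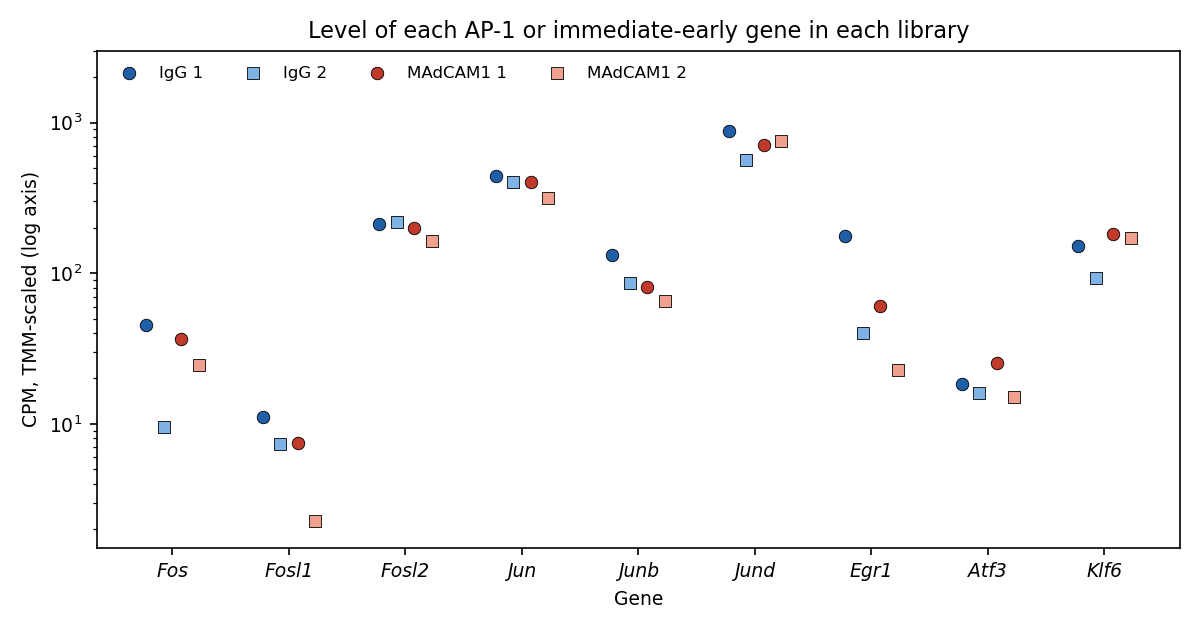
Level of the 9 genes in each library, in TMM-scaled CPM on a log axis, with 1 point per library (blue IgG, red MAdCAM1; circles replicate 1, squares replicate 2). Jund lies at the top and Fosl1 at the bottom, Fos is lowest in IgG 2 at 9.59 CPM, and Egr1 is highest in IgG 1 at 178 CPM.

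Ranked by mean level, Jund came first at 728 CPM, followed by Jun at 391, Fosl2 at 198, Klf6 at 150, Junb at 90.7, Egr1 at 75.2, Fos at 28.8, Atf3 at 18.7 and Fosl1 at 7.02 CPM. Jund lay above Jun, and Jun above Fosl2, in ranges over the 4 libraries that did not overlap, and Fosl1 lay below Atf3 in the same way. Neighbours from Fosl2 down to Atf3 overlapped in their ranges.

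Among the Fos family, whose proteins need a Jun partner, the inducible founder Fos varied most within the control group. Fos (chromosome 12, 85520658 to 85524047, GRCm39) measured 45.0 and 9.59 CPM under IgG versus 36.3 and 24.5 CPM under MAdCAM1 antibody. IgG 1 was the highest and IgG 2 the lowest of the 4, so that both MAdCAM1 values lay between the IgG values. The level in IgG 1 was 4.69-fold that in IgG 2. Between the groups the log2 fold change was 0.16 (SE 0.77, n = 2 per group; edgeR adjusted p = 0.981), smaller than its error. It was 1.65 without IgG 1, and it turned negative without IgG 2 (−0.57) and without MAdCAM1 1 (−0.16). The 155 Fos tags of IgG 2 carry an exact Poisson 95% interval of 132 to 181 tags and the 790 of IgG 1 one of 736 to 847, which cover counting error only.

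Fosl1, which encodes FRA-1, a Fos relative linked to invasion and repair, was the scarcest of the genes. It had 194, 118, 107 and 35 tags, which is 11.04 and 7.30 CPM under IgG versus 7.49 and 2.27 CPM under MAdCAM1 antibody. MAdCAM1 2 was low, and MAdCAM1 1 lay just above IgG 2. Its log2 fold change was −0.91 (SE 0.66; adjusted p = 0.835), −0.29 without MAdCAM1 2 and −2.01 without MAdCAM1 1. Fosl1 (chromosome 19, 5497575 to 5505974) overlaps Ccdc85b on the other strand, a gene with 3070 tags over the 4 libraries. Whether the counting used strand is not given in the sources used here.

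Fosl2, which encodes FRA-2, was the main Fos family RNA and the steadiest gene of the set. It measured 211 and 217 CPM under IgG versus 200.3 and 164 CPM under MAdCAM1 (chromosome 5, 32292707 to 32315186). Both MAdCAM1 libraries lay below both IgG libraries, by a small margin for MAdCAM1 1. The log2 fold change was −0.23 (SE 0.17; adjusted p = 0.835), and the highest library was 1.33-fold the lowest. Without MAdCAM1 2 it was −0.094.

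Fosl2 gave most Fos family tags in every library. Its share of the tags of Fos, Fosl1 and Fosl2 was 79.0% in IgG 1 (Wilson 95% interval 77.8 to 80.1), 92.8% in IgG 2 (91.9 to 93.6), 82.0% in MAdCAM1 1 (80.7 to 83.3) and 86.0% in MAdCAM1 2 (84.7 to 87.2). The Fos share was 16.9%, 4.10%, 14.9% and 12.8%, with intervals of 15.8 to 17.96, 3.51 to 4.78, 13.7 to 16.1 and 11.7 to 14.1. IgG 2 had the smallest Fos share, and both MAdCAM1 libraries lay between it and IgG 1. The Fosl1 share was 4.14%, 3.12%, 3.07% and 1.19%, lowest in MAdCAM1 2. These intervals cover counting error and not the spread between samples.

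In the Jun family, which can bind DNA as Jun pairs or with Fos proteins, Jun itself was abundant and differed little. Jun measured 442 and 403 CPM under IgG versus 406 and 315 CPM under MAdCAM1 (chromosome 4, 94937271 to 94940459). IgG 1 was the highest and MAdCAM1 2 the lowest, and MAdCAM1 1 lay just above IgG 2. A log2 fold change of −0.23 (SE 0.19; adjusted p = 0.857) became −0.059 without MAdCAM1 2. The antisense gene Junos overlaps Jun and had 296 tags over the 4 libraries.

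Junb, an immediate-early Jun protein with weaker growth-promoting activity than Jun, was lower in both MAdCAM1 libraries. It measured 132 and 85.8 CPM under IgG versus 80.5 and 64.9 CPM under MAdCAM1 (chromosome 8, 85701113 to 85705359). IgG 1 was high, and the nearest values of the groups, 85.8 and 80.5 CPM, were close. The log2 fold change of −0.58 (SE 0.27; adjusted p = 0.760) had the smallest unadjusted p of the set, 0.092. It was −0.26 without IgG 1 and −0.87 without IgG 2. Junb overlaps Prdx2, an antisense gene with 25150 tags over the 4 libraries, and if the counting ignored strand the tags of such pairs cannot be told apart.

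Jund, the broadly expressed Jun protein that often restrains growth, was the most abundant gene. It measured 882 and 564 CPM under IgG versus 706 and 759 CPM under MAdCAM1 (chromosome 8, 71151599 to 71153265). As for Fos, the IgG libraries held both the highest and the lowest value. Its log2 fold change was 0.019 (SE 0.26; adjusted p = 0.994), and −0.080 when scaled by library size alone.

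Within the Jun family, Jund gave 60.6%, 53.6%, 59.2% and 66.6% of tags, Jun 30.4%, 38.3%, 34.0% and 27.7%, and Junb 9.05%, 8.15%, 6.75% and 5.70%. The Wilson 95% intervals of the Junb share were 8.71 to 9.41 and 7.74 to 8.57 in IgG, and 6.38 to 7.13 and 5.37 to 6.06 in MAdCAM1. The Junb share was lower in both MAdCAM1 libraries, and the IgG libraries also differed from each other by more than these intervals, which hold counting error only. The difference between the groups was not tested. Summed over each family, Jun genes stood at 1455, 1053, 1192 and 1139 CPM and Fos genes at 267, 234, 244 and 190.5 CPM. Jun family tags outnumbered Fos family tags by 5.46, 4.50, 4.88 and 5.98-fold.

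**Figure D2:**
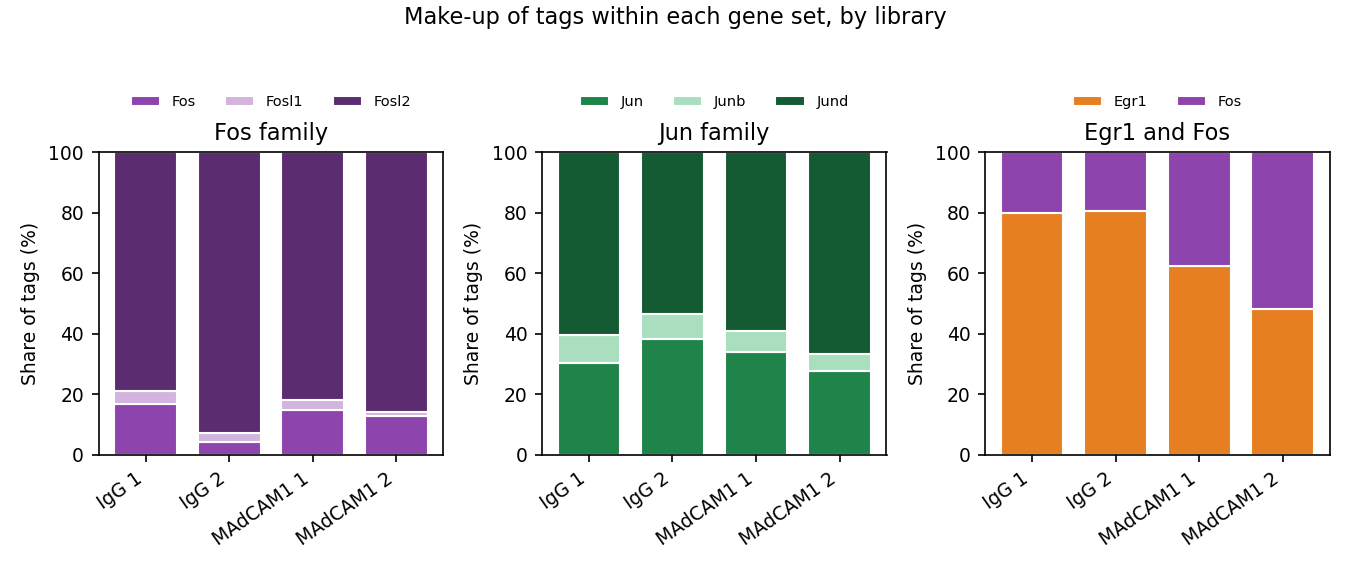
Share of tags, in percent, that each gene takes within the Fos family, the Jun family and the pair of Egr1 and Fos, with 1 stacked bar per library. Fosl2 takes 79.0% to 92.8% of the Fos family and Jund 53.6% to 66.6% of the Jun family. The Egr1 part of the Egr1 and Fos pair is near 80% in both IgG libraries and smaller in both MAdCAM1 libraries. That pair was chosen after the values were seen.

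Egr1, a zinc finger factor induced with Fos by serum response factor and ERK signalling, had the widest range of the set. Egr1 (chromosome 18, 34992876 to 34998049) measured 178 and 40.1 CPM under IgG versus 60.3 and 22.6 CPM under MAdCAM1. IgG 1 was far above the others and MAdCAM1 1 lay above IgG 2, so that the groups overlapped. The log2 fold change of −1.40 (SE 0.88; adjusted p = 0.818) rested on IgG 1: without that library it was 0.024. Between the IgG libraries the level differed 4.43-fold, about as much as for Fos, and the highest library was 7.87-fold the lowest.

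Egr1 had fewer tags per Fos tag in both MAdCAM1 libraries than in either IgG library. Egr1 had 3.95 and 4.19 tags per Fos tag in the IgG libraries and 1.66 and 0.923 in the MAdCAM1 libraries. As a share of the tags of both genes Egr1 made up 79.8% (Wilson 95% interval 78.5 to 81.0) and 80.7% (77.9 to 83.3) in IgG, and 62.4% (59.8 to 64.9) and 48.0% (44.4 to 51.6) in MAdCAM1. The IgG libraries were close to each other although their Fos levels differed 4.69-fold, and both MAdCAM1 libraries lay below them. A ratio within a library does not depend on the scaling. It was chosen after the values were seen and has no test. The intervals cover counting error and not the spread between samples, so no difference between the groups is read from them. Of all other tested genes 1.79% had a ratio to Fos that was lower in both MAdCAM1 libraries and 2.43% one that was higher. As the Egr1 values prompted this ratio, its place is not read against those shares. Junb and Fosl1 also had a lower ratio to Fos in both MAdCAM1 libraries, while for Fosl2, Jun, Jund, Atf3 and Klf6 the groups overlapped. The values of these genes had been seen too when the ratio was chosen, so they are likewise not read against those shares.

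Atf3, a stress-induced ATF protein that pairs with Jun proteins and often represses, measured 18.4 and 16.1 CPM under IgG versus 25.3 and 15.0 CPM under MAdCAM1 (chromosome 1, 190902493 to 190950241). MAdCAM1 1 was the highest and MAdCAM1 2 the lowest. The fold change on the log2 scale was 0.22 (SE 0.31; adjusted p = 0.921), and −0.21 without MAdCAM1 1.

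Klf6, a zinc finger factor of the Krüppel-like family that is an early response gene in some cells, was the gene of the set that was higher in both MAdCAM1 libraries. It measured 151 and 92.7 CPM under IgG versus 183 and 172 CPM under MAdCAM1 (chromosome 13, 5911481 to 5920393). The MAdCAM1 values were close together and IgG 2 was low. On the log2 scale the difference was 0.54 (SE 0.27; adjusted p = 0.760), 0.92 without IgG 1 and 0.23 without IgG 2. Epithelial markers were also higher in both MAdCAM1 libraries for 10 of 11 genes, against 19.7% of all tested genes. Their summed levels were 7511 and 6485 CPM under IgG versus 12457 and 10964 CPM under the antibody. The quasi-likelihood test called 0 of the 11. The exact test called 3 and DESeq2 6, against 161 and 239 of the 14331 tested genes. The part of epithelial cells in the Klf6 level was not tested.

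**Figure D3:**
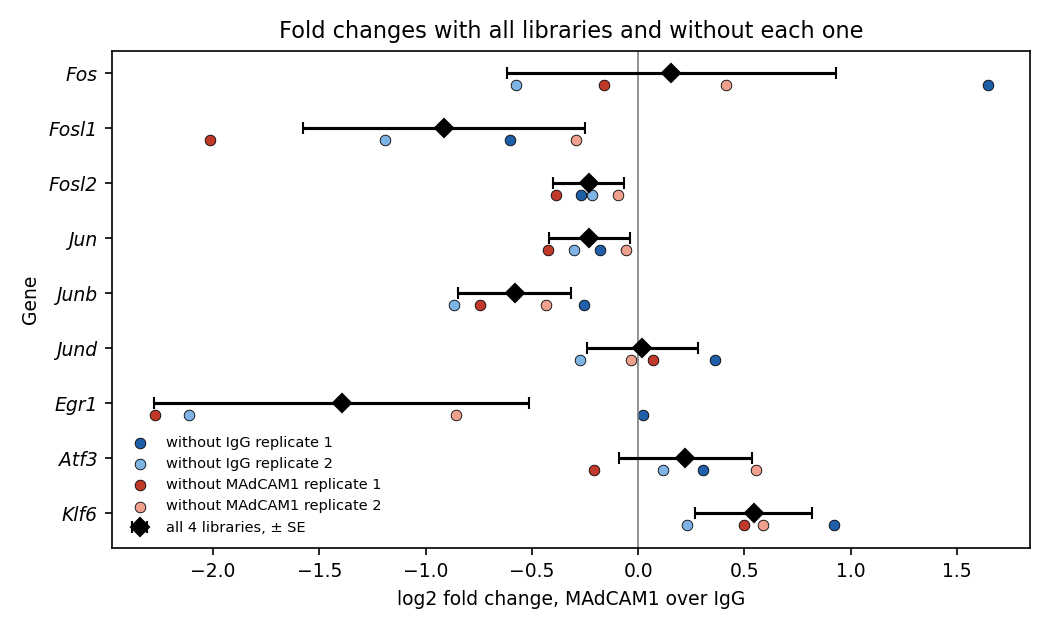
log2 fold change of MAdCAM1 over IgG for the 9 genes, from all 4 libraries (black diamonds, bars ± SE) and with each library left out (coloured points). Egr1 moves from −1.40 to 0.024 without IgG replicate 1, Fos from 0.16 to 1.65, and Fosl2, Jun and Junb stay below 0 in every point.

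Across the set, IgG 1 was the highest library for 6 of the 9 genes (22.2% of all tested genes), and MAdCAM1 2 the lowest for 6 (27.8%). With all genes scaled by library size alone, Jun and Fosl1 joined Junb and Fosl2 as lower without overlap, so that 4 of 9 were lower, when 28.6% of all tested genes were. That scaling moved the median log2 fold change of all tested genes to −0.099. Summed smooth muscle markers were high in IgG 1 and MAdCAM1 2 alike (2248 and 2439 CPM). Summed over the 9 macrophage markers tested of 12, led by Lyz2 (96.6, 377, 95.9 and 384 CPM) and Ctss (56.4, 93.5, 66.7 and 171 CPM), the levels were 255, 677, 263 and 769 CPM, and over the 9 neutrophil markers tested of 12 they were 370.3, 624, 334 and 942 CPM. The neutrophil list was led by S100a9 (198, 253, 85.6 and 509 CPM) and S100a8 (78.8, 244, 104 and 212 CPM). In both sums IgG 1 and MAdCAM1 1 were low, and no tested marker of either list was at 0 in any library. The neutrophil markers were mixed: of the 9, 5 were highest in IgG 2, 2 in IgG 1 and 2 in MAdCAM1 2. In both MAdCAM1 libraries 4 of the 9 were lower and 1 higher, against 18.7% and 19.7% of all tested genes. The exact test called 2 of the 9 and DESeq2 1, against 161 and 239 of the 14331 tested genes. The part of smooth muscle, macrophages and neutrophils in the levels of the set was not tested.

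Among other immediate-early genes, the early response beyond AP-1, of 42 listed 38 were tested and 0 passed the quasi-likelihood test, 3 were higher and 7 lower in both MAdCAM1 libraries (against 19.7% and 18.7% of all tested genes), and the median log2 fold change was −0.069. IgG 1 was the highest library for 19 of the 38, against 22.2% of all tested genes, and the median was 0.062 without it, −0.29 without IgG 2 and −0.14 without MAdCAM1 1. Klf4, a factor of differentiated surface epithelium, measured 98.9 and 37.4 CPM under IgG versus 135 and 169 CPM under MAdCAM1 (log2 fold change 1.16, SE 0.51; adjusted p = 0.757). Its MAdCAM1 values lay above both IgG values, as for Klf6, 10 of the 11 epithelial markers and 19.7% of all tested genes. The part of epithelial cells in the Klf4 level was not tested.

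Zfp36l1, which promotes decay of AU-rich RNAs, measured 430.0 and 320.4 CPM under IgG versus 211 and 253 CPM under MAdCAM1 (log2 fold change −0.70; adjusted p = 0.691). Myc, a growth regulator and Wnt target, stood at 77.2 and 103 CPM against 68.5 and 44.9 CPM (−0.67; adjusted p = 0.741). Gadd45g, a stress sensor that activates p38 and JNK signalling, stood at 32.6 and 59.6 CPM against 20.7 and 25.3 CPM (−1.001; adjusted p = 0.715). All 3 had both MAdCAM1 values below both IgG values, and 0 of them passed the test. Nr4a1, an orphan nuclear receptor induced by the same signals as Egr1, was picked after its values were seen and stood at 52.6, 17.3, 38.7 and 13.8 CPM.

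**Figure D4:**
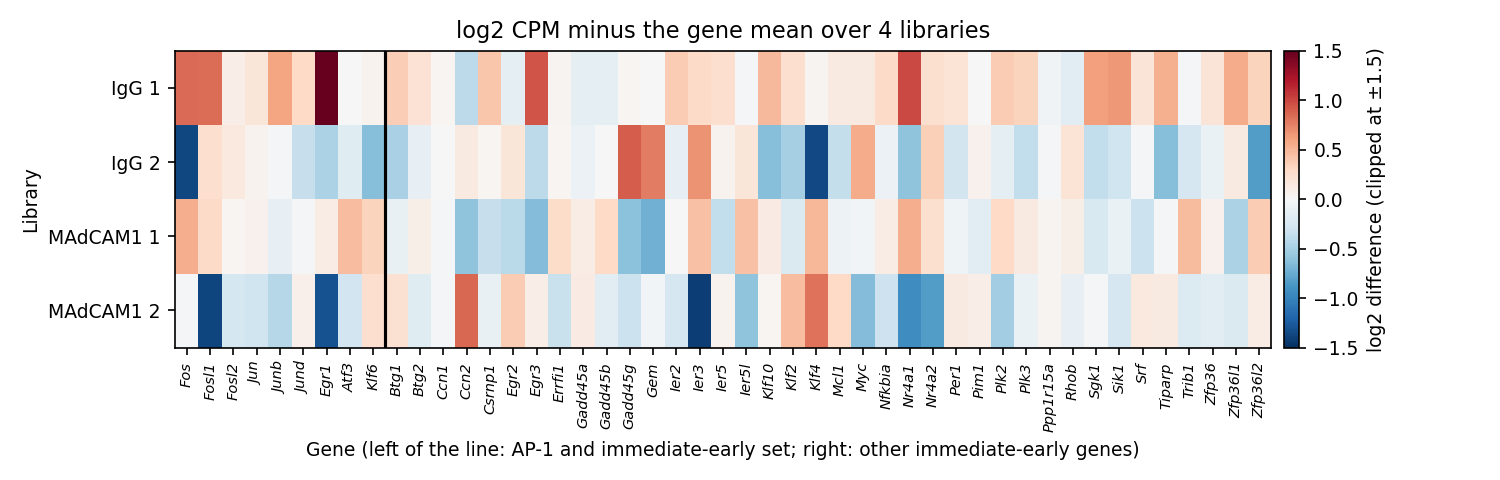
log2 CPM of each gene minus its mean over the 4 libraries, for the 9 genes of the set (left of the line) and 38 other immediate-early genes (right), with 1 row per library and colours that end at 1.5 in either direction. IgG 1 is the highest library for 6 of the 9 and 19 of the 38 genes.

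The MAP kinases that switch these genes on lay on either side of no difference. Of 25 tested kinases and activators, 5 were higher and 3 lower in both MAdCAM1 libraries, which for all tested genes was 19.7% and 18.7%. Their median log2 fold change was 0.023, or −0.074 with library size scaling, −0.066 without MAdCAM1 2, −0.022 without IgG 2, 0.0095 without MAdCAM1 1 and 0.039 without IgG 1. Mapk3, which encodes ERK1, measured 199 and 216 CPM under IgG versus 305 and 292 CPM under MAdCAM1 (log2 fold change 0.52, SE 0.14; adjusted p = 0.691). The groups were apart by more than the spread within either, but the gene did not pass the test over all genes. Map3k1 had a log2 fold change of −0.27, Mapk7, the ERK5 gene, −0.34 and Braf −0.41, at adjusted p-values of 0.760 to 0.834.

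A list of feedback inhibitors, most of them of MAP kinases, had a median log2 fold change of −0.19 over 18 genes. Many are induced by ERK activity itself, and the 18 include Nab1, Nab2 and Socs3, which inhibit other targets. In both MAdCAM1 libraries 1 was higher and 2 lower, against 19.7% and 18.7% of all tested genes. The ERK phosphatase gene Dusp4 measured 43.4 and 50.3 CPM under IgG versus 32.1 and 22.4 CPM under MAdCAM1 (−0.78, SE 0.24; adjusted p = 0.691). Dusp7, another ERK phosphatase gene, stood at 110.1 CPM in IgG 1 and at 37.6, 30.2 and 43.8 CPM elsewhere. Spred1 had a log2 fold change of −0.45 and Spry2 of 0.29. Without IgG 1 the list median was 0.053, without IgG 2 −0.29 and without MAdCAM1 2 −0.31.

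Factors that act on immediate-early promoters, of the SRF, ETS and CREB classes, had a median of −0.16 over 14 genes, with 5 lower and 0 higher in both MAdCAM1 libraries, beside 18.7% and 19.7% of all tested genes. The median was −0.051 without IgG 1 and −0.26 without IgG 2. Etv5, an ETS factor downstream of ERK, measured 77.7 and 316 CPM under IgG versus 80.9 and 40.8 CPM under MAdCAM1 (log2 fold change −1.69, SE 0.79; adjusted p = 0.760). IgG 2, where Fos was lowest, was the highest library, and the groups overlapped. Elk3 (−0.33), Crtc2 (−0.36) and Creb1 (−0.18) were lower in both MAdCAM1 libraries at adjusted p-values of 0.760 to 0.858.

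Among the other leucine zipper proteins, which pair or compete with AP-1, 27 of 31 listed genes were tested, with 2 higher and 7 lower in both MAdCAM1 libraries, where all tested genes had 19.7% and 18.7%. Their median was −0.085, or −0.037 without IgG 2 and −0.050 without MAdCAM1 1. Nfe2l2, which encodes the oxidative stress factor NRF2, measured 74.1 and 96.8 CPM under IgG versus 58.6 and 54.8 CPM under MAdCAM1 (−0.59, SE 0.18; adjusted p = 0.691). Mafg, a small Maf partner of NRF2, stood at 63.3 and 61.8 CPM against 48.7 and 42.0 CPM (−0.46, SE 0.15; adjusted p = 0.691). For both genes the groups did not overlap, and neither passed the test. Creb5 had a log2 fold change of 0.61 and Atf6 of 0.30.

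Genes known as AP-1 targets, such as proteases, growth factors and cell cycle genes, were set beside Fos. IgG 1, the library highest in Fos, was the highest for 5 of the 25 tested, near the 22.2% of all tested genes. Of 30 listed, Fosl1 itself among them, 25 were tested, 0 were higher and 3 lower in both MAdCAM1 libraries, set against 19.7% and 18.7% of all tested genes. The median log2 fold change was −0.19, with −0.53 without IgG 1, −0.47 without MAdCAM1 1 and −0.079 without IgG 2. IgG 2, the library lowest in Fos, was the highest for 13 of the 25, against 29.3% of all tested genes. The matrix metalloprotease genes Mmp10 (5.86, 267, 99.7 and 83.9 CPM) and Mmp13 (3.24, 106, 79.5 and 54.1 CPM), picked after their values were seen, were lowest in IgG 1. Fibroblast markers, led by Col1a1 (97.9, 495, 169 and 522 CPM) and Col3a1 (155, 399.97, 159.8 and 483 CPM), summed to 561, 1278, 515 and 1784 CPM, and their part in these levels was not tested. The counts of Col3a1 are shared with another gene entry.

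Areg, which encodes the EGF receptor ligand amphiregulin, ran with Fos at 146, 39.5, 139 and 76.0 CPM. Hbegf, also listed as an AP-1 target and picked after its values were seen, was likewise highest in IgG 1 and lowest in IgG 2. Vim, which encodes the intermediate filament vimentin, measured 212 and 309 CPM under IgG versus 151 and 186 CPM under MAdCAM1 (log2 fold change −0.63; adjusted p = 0.731). Phlda1 had a log2 fold change of −0.57, the cyclin gene Ccnd1 −0.31 and the EGF receptor ligand gene Ereg −1.4996, at adjusted p-values of 0.760 to 0.818. For Ereg the groups overlapped: IgG 2 was high at 32.8 CPM, and IgG 1 (5.58 CPM) lay below MAdCAM1 1 (9.24 CPM).

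**Figure D5:**
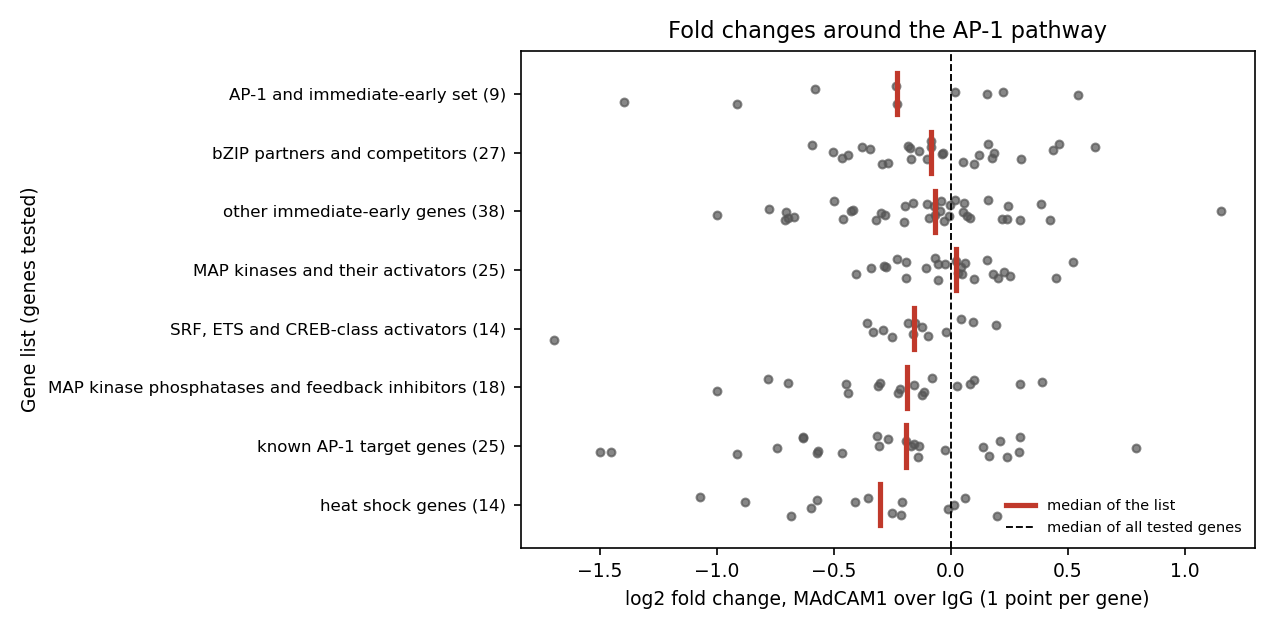
log2 fold change of MAdCAM1 over IgG for each tested gene (points) in the AP-1 and immediate-early set and 7 surrounding lists, with the list median (red bar) and the median of all tested genes (dashed line). The list medians lie between −0.30 and 0.023, and 0 genes of these lists passed edgeR's quasi-likelihood test.

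Profiles over the 4 libraries were compared as log2 CPM centred on each gene's mean, by Euclidean distance among 9728 named genes of at least 10 CPM on average. The 5 nearest to Fos were Rapgefl1 (distance 0.32), Areg (0.33), Fut9 (0.41), Ang4 (0.42) and Isl1 (0.44). They were nearer than any gene of the set, of which Klf6 was the closest at 1.13, and Egr1 lay at 1.81. The 5 nearest to Jun were Kmt2d (0.013), Zfp866 (0.033), Ucp2 (0.044), C1qbp (0.054) and Scaf4 (0.055), and Fosl2 lay at 0.14 and Junb at 0.47. With 4 libraries such nearness is a description of these samples.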

How the data were processed

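CAGE tags from 4 tumour libraries were analysed. Per the labels' protocols, the authors aligned tags to GRCm39 by BWA 0.7.17, with HISAT2 2.0.5 for the rest, and the RECLU pipeline dropped tag clusters that were scarce, long or not reproduced between replicates, using bedtools 2.12.0. Values as deposited by the authors are whole-number tag counts for each gene, not normalized, and how tags or clusters were assigned to genes is not given in the sources used here.

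Here edgeR 4.0.16 (R 4.3.3) filtered genes with filterByExpr, applied TMM scaling and fitted its quasi-likelihood model with robust estimation. Benjamini-Hochberg p-values were adjusted over 14331 genes, at a threshold of 0.05. DESeq2 1.42.0, limma-voom (limma 3.58.1), edgeR's exact test, other scalings and filters, leaving out each library and a replicate block were alternatives. The common biological coefficient of variation was 0.322. On simulated data of 14237 genes for this comparison, the quasi-likelihood test recovered 1 of 50 genes planted at 2-fold, 34 at 4-fold, 41 at 8-fold and 46 at 16-fold. Among 14131 genes simulated without a change it called 22, the exact test 60, DESeq2 71 and limma-voom 19. Poisson and Wilson intervals (95%) cover counting error only. Gene positions are from GENCODE M39.

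The 10 genes and the lists were chosen with earlier results of these data known. Besides the set, the text names up to 4 genes per pathway list with the smallest p, the 2 most abundant markers per cell type and the 5 nearest profiles to Fos and Jun. Nr4a1, Mmp10, Mmp13, Hspa1a, Hspa1b and Hbegf fall outside this rule and were picked after their values were seen. Nab1, Nab2 and Socs3 are named only as members of their list. A planned comparison of protein sequences was not made.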

Additional observations from a re-analysis of the deposited data

How the results depend on the processing

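With 2 libraries per group, 0 genes of the set passed the adjusted threshold under any of the 13 alternatives, and Fosl1, Fosl2, Jun and Junb stayed below 0 and Klf6 above 0 in all of them. Over all genes DESeq2 called 219 higher and 20 lower and edgeR's exact test 152 higher and 9 lower, against 0 and 0. When 1 library was left out, log2 fold changes ran from −2.27 to 0.024 for Egr1, above 0 without IgG 1, and from −0.57 (without IgG 2) over −0.16 (without MAdCAM1 1) to 1.65 (without IgG 1) for Fos. They ran from −0.21 (without MAdCAM1 1) to 0.55 for Atf3, and from −0.27 (without IgG 2) over −0.034 (without MAdCAM1 2) to 0.36 for Jund, which was also −0.080 with library size scaling. Genes of the set lower in both MAdCAM1 libraries numbered 4 with upper quartile scaling (19.6% of all tested genes) and 4 with library size scaling (28.6%), against 2 (18.7%). With 1 library left out they numbered 2 to 7 (32.5% to 38.7% of all genes tested then), and those higher in both 1 to 3 (33.1% to 35.1%), against 1 (19.7%). The cause of these shifts was not tested beyond these shares. With the replicate number as a block the calls were 0 higher, 0 lower and 0 in the set, and the median of the set was −0.24. The labels do not say what the replicate numbers share across the groups, and the differences between replicates 1 and 2 correlated across genes at −0.14 between the groups, so the block is not read as a pairing.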

Other observations

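Heat shock genes, which share many inducing stresses with Fos and Egr1, had a median log2 fold change of −0.30 over 14 tested genes, with 5 lower and 1 higher in both MAdCAM1 libraries (against 18.7% and 19.7% of all tested genes) and 0 called by edgeR's quasi-likelihood test. The median was −0.19 without IgG 2. The inducible HSP70 gene Hspa1b, picked after its values were seen, measured 96.5 (IgG 1), 15.2 (IgG 2), 14.6 (MAdCAM1 1) and 46.2 CPM (MAdCAM1 2), and its neighbour Hspa1a, picked likewise, 25.2, 4.95, 4.13 and 10.2 CPM. Both were highest in IgG 1, as Fos and Egr1 were. Of the 14 tested heat shock genes 6 were highest in IgG 1 and 7 in IgG 2, against 22.2% and 29.3% of all tested genes. A shared inducing signal was not tested. The chaperone genes Hspa8 (1211, 1513, 1024 and 1108 CPM), Hsp90ab1 (1715, 2107, 1474 and 1399.9 CPM) and Dnaja1 (294, 480, 284 and 236 CPM) were highest in IgG 2 instead, and so was Hsph1 (48.7, 80.8, 43.9 and 41.7 CPM). Hspa1a and Hspa1b are near-identical copies, so their split is uncertain.

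EGF receptor ligand genes differed in the library where they were highest. Areg and, picked after its values were seen, Hbegf (38.4, 9.40, 18.7 and 15.9 CPM) were highest in IgG 1, and Ereg (5.58, 32.8, 9.24 and 4.34 CPM) in IgG 2. The cell type lists not given above summed to 55.0, 108, 34.7 and 143 CPM for endothelium, 38.6, 57.7, 23.5 and 52.4 CPM for T cells and 263, 304, 263 and 871 CPM for B and plasma cells. The leading endothelial markers were Plvap (14.9, 33.6, 10.7 and 46.9 CPM) and Eng (6.60, 21.8, 6.79 and 26.7 CPM). Those of T cells were Zap70 (13.03, 31.2, 8.12 and 9.84 CPM) and Cd3e (9.79, 9.59, 4.69 and 14.6 CPM, with counts shared by another gene entry). Those of B and plasma cells were Xbp1 (243, 264, 217 and 339.7 CPM) and Jchain (8.14, 35.4, 42.7 and 449.6 CPM). The T cell markers were mixed: of the 6 tested, 4 were highest in MAdCAM1 2, 1 in MAdCAM1 1 and 1 in IgG 2. These shares stand beside 24.2%, 24.4% and 29.3% of all tested genes. Zap70, the 1 highest in IgG 2, gave most of the T cell sum there. All 6 tested B and plasma cell markers were highest in MAdCAM1 2. Xbp1 gave most of their sum in IgG 1, IgG 2 and MAdCAM1 1 but not in MAdCAM1 2.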
